A study of Mus musculus with 5 samples.

Results

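The mitochondrial solute carriers of the SLC25 family were examined in erythroid cells of mouse bone marrow, in wild-type (WT) mice and in mice homozygous for a mutant Polg allele. Members were all genes with an Slc25a number as symbol, together with Ucp1, Ucp2, Ucp3, Mtch1 and Mtch2. The iron, glycine and glutathione carriers Slc25a28, Slc25a37, Slc25a38 and Slc25a39 were left out. This gave 46 genes of the 22180 measured, each read by 1 probe set. No probe set carried Ucp2 as its single symbol, so it was not analysed here.

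Expression was measured on 1-colour arrays, 2 from WT mice (Polg wt/wt) and 3 from Polg mutant mice (Polgtm1Lrsn mt/mt), an allele whose DNA polymerase copies mitochondrial DNA without proofreading. All mice were on a C57BL/6 background, and all came from parents that were both Atg7 flox/flox, both carrying 1 mutant Polg allele, of which the male also had Epo-cre ki/wt. Neither the offspring that carried the Cre nor the animals' ages are stated. The design text calls the mice phlebotomized, whereas the labels give no treatment. Cells were depleted of CD45 and then selected for Ter119, an antigen of erythroblasts and red cells. Since the labels do not tie arrays to separate animals, every p-value below reflects the spread between these arrays, and that spread may be technical.

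SLC25 proteins are small carriers, most of them in the inner mitochondrial membrane, that exchange nucleotides, phosphate, carboxylates, amino acids and cofactors between the matrix and the cytosol. Each is encoded in the nucleus and folded from a repeated carrier unit, and most lack a cleaved targeting signal. Those of the inner membrane are inserted through the TIM22 route. In red cell precursors they serve heme synthesis, ATP export and nucleotide supply until the mitochondria are cleared from the maturing cell.

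Values are log2 expression, on which 1 unit is a doubling, and differences are Polg mutant minus WT with limma's standard error (SE). Array medians lay between 5.10 and 5.13. A gene at or below a log2 of 6 on more than 3 arrays is called dim here, because no signal over background was available, and 18 of the 46 carriers were dim. Exact ties between arrays are frequent in the deposited values: 27 carriers (58.7%) had the same value on at least 2 arrays, against 67.9% of all genes, and Mtch1, Slc25a17 and Ucp1 had a single value on all 5. Ties within a group add nothing to its spread, so the SE and p-value of a tied gene may be too small.

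Erythroid markers were high on every array and lower in the Polg mutant. The mean of 12 measured erythroid markers was 12.03 to 12.21 in WT and 11.77 to 11.86 in the Polg mutant. All 12 differences were negative, 6 of them at an unadjusted limma p under 0.05. At that p 5.33% of all genes were lower, and 12.5% of the genes that were not dim. The mean of 16 neutrophil markers was 8.05 and 7.04 in WT replicates 1 and 2, and 8.47, 8.88 and 7.31 in Polg mutant replicates 1 to 3. Of these 16 only 1 was dim, while 10 of 12 macrophage markers and 7 of 9 B cell markers were dim. All 9 B cell markers had negative differences. Of 8 megakaryocyte markers 4 were dim, and 7 had negative differences and 1 a positive one. The megakaryocyte mean was 6.34 and 6.99 in WT and 6.28, 6.42 and 6.17 in the mutant. Ptprc, which encodes the depleted antigen CD45, read 7.13 and 6.43 in WT and 7.67, 7.40 and 6.06 in the mutant. The part of these cell differences in the carrier results was not tested. In such a mixed sample, fewer cells of a type and less RNA per cell cannot be told apart. Polg itself read 6.97 on every array, which checks no label, since the mutant allele is still transcribed. Atg7 read 7.74 and 7.71 in WT and 7.74 on each Polg mutant array; whether its probes lie in the floxed part was not given.

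The comparison asked whether carriers of different substrates differed between WT and Polg mutant erythroid cells. The pyrimidine nucleotide carriers Slc25a33 and Slc25a36 showed the largest positive differences, 1.44 and 0.65. The 2-oxoadipate carrier Slc25a21, the ATP-Mg/phosphate carrier Slc25a24 and the dicarboxylate carrier Slc25a10 showed the largest negative ones, at -0.72, -0.41 and -0.40. The ADP/ATP carriers Slc25a4 and Slc25a5 and the phosphate carrier Slc25a3 were higher by smaller amounts, 0.14 to 0.24, with very little spread between arrays. With limma no carrier passed an adjusted p of 0.05, the smallest being 0.217 for Slc25a21, and neither did any other gene, so 0% of the 22180 genes were called.

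At an unadjusted limma p under 0.05, 5 carriers were higher and 5 lower in the Polg mutant, which is 10.9% of the 46 in each direction. Over all genes 927 were higher (4.18%) and 1183 lower (5.33%). All 3 mutant arrays exceeded both WT arrays for 10 carriers (21.7%, against 8.36% of all genes) and below both for 6 (13.0%, against 9.73%). These shares depend on dim genes, ties and scaling. Among genes that were not dim, 4 of 28 carriers were higher and 4 lower at that p (14.3% each), against 9.47% and 12.5% of 8340 genes. The mutant arrays of 9 of these 28 lay above WT (32.1%, against 16.7%) and those of 5 below (17.9%, against 20.3%), so the lower share was then under that of all genes. Slc25a4, Slc25a20 and Slc25a33 were not dim only through their mutant arrays, so these counts are a description. Median centring of the arrays, which breaks ties between them, left 10 carriers above WT while the share of all genes became 19.0%. With arrays centred on genes above a log2 of 6, 7 carriers were above WT (15.2%, against 6.21%) and 14 below (30.4%, against 20.9%). The carriers as a whole were not shifted in one direction: 21 had a positive and 22 a negative difference, 3 had none, and the median was 0.00, as it was over all genes. The classes therefore are described separately.

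**Figure D1:**
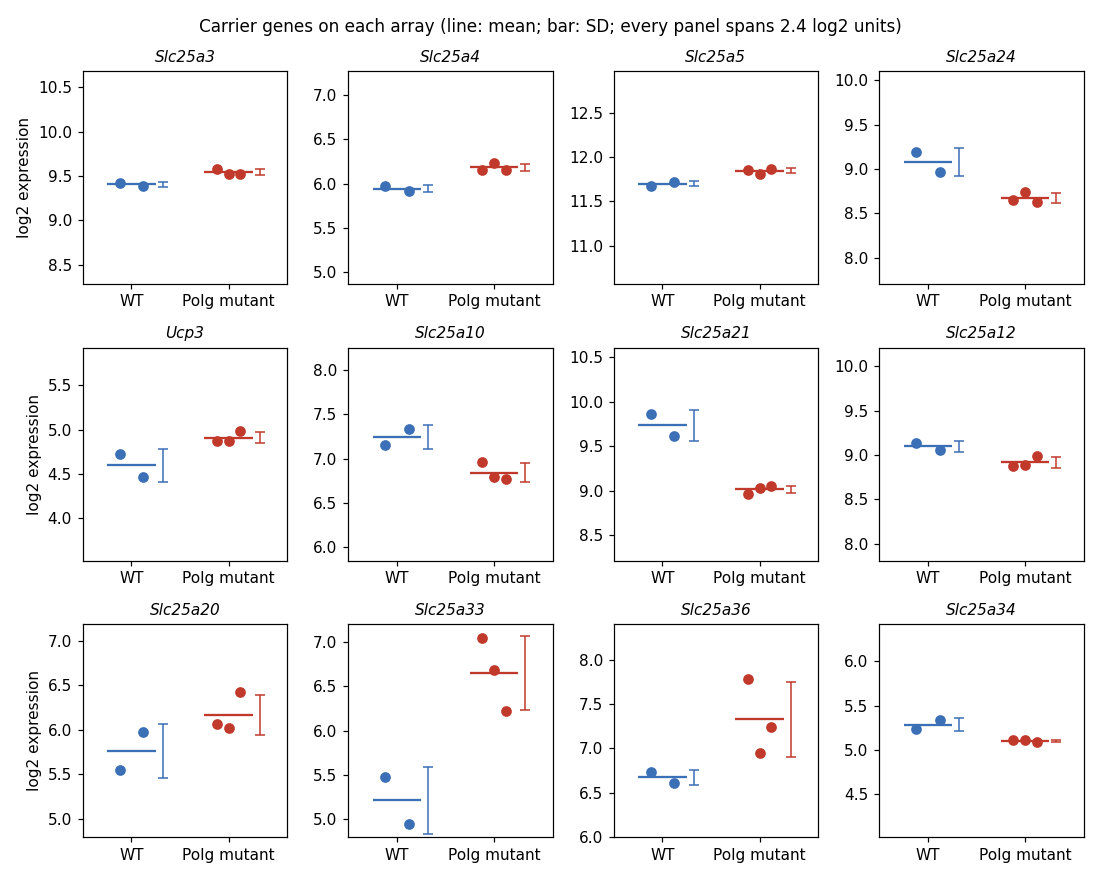
Log2 expression of 12 carriers on each array, for 2 WT arrays (blue) and 3 Polg mutant arrays (red); lines are group means, side bars SD, and every panel spans 2.4 log2 units. The groups do not overlap in any panel, and the gap is widest for Slc25a33, whose WT arrays read 5.48 and 4.94 and whose Polg mutant arrays read 6.22 to 7.05.

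Both carriers of pyrimidine nucleotides were higher in the Polg mutant on every array. They bring pyrimidine nucleotides into the matrix, where mitochondrial DNA and RNA are made, and Slc25a33 is known as a growth-factor-responsive gene. Slc25a33 read 5.48 and 4.94 in WT and 7.05, 6.68 and 6.22 in the mutant. The lowest mutant array exceeded the highest WT array, and the mutant arrays differed among themselves by more than that gap. The difference was 1.44 ± 0.33 (SE), a 2.71-fold higher level, with a limma adjusted p of 0.329 and an unadjusted p of 0.0142. Both WT values lie under the level used here for dim genes, so Slc25a33 counts as not dim only through the mutant arrays, and the fold is not exact.

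Slc25a36 read 6.74 and 6.61 in WT and 7.79, 6.95 and 7.24 in the mutant. Its WT arrays lay close together and its mutant arrays were spread over a wider range, with replicate 1 highest, as it was for Slc25a33. The difference was 0.65 ± 0.29 (SE), 1.57-fold, with a limma adjusted p of 0.638. It ranged from 0.42 to 0.84 when 1 array was left out, and that of Slc25a33 from 1.17 to 1.71. Slc25a33 kept an unadjusted limma p under 0.05 in 3 of these 5 fits and Slc25a36 reached it in 1.

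The promoter windows of these genes are printed because both genes were higher on every mutant array, next to those of 2 carriers that were lower. They are RefSeq sequences of build GRCm38.p6, the 250 bases before the annotated start, read on the gene's strand from 5′ to 3′. Capitals mark matches on either strand to any of 4 motifs, whose matches do not overlap one another in the carriers' windows. The E-box bound by MYC and related factors was searched as CACGTG. The box bound by NF-Y was searched as CCAAT, which reads ATTGG on the other strand. The site of GATA factors was searched as AGATAA. Part of the element bound by ATF4 was searched as TGATGNAA.
Slc25a33, chr4:149774268-149774517, minus strand: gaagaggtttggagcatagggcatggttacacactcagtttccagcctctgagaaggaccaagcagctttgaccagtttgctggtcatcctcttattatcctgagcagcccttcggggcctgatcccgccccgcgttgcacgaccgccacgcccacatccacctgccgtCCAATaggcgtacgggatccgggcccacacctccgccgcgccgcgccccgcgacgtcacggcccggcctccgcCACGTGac
Slc25a36, chr9:97111042-97111291, minus strand: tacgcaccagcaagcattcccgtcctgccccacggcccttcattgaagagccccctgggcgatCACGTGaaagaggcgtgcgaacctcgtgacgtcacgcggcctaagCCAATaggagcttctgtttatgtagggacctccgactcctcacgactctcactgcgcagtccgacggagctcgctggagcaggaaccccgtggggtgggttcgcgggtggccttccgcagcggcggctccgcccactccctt
Slc25a21 (first of 2 starts), chr12:57160644-57160893, minus strand: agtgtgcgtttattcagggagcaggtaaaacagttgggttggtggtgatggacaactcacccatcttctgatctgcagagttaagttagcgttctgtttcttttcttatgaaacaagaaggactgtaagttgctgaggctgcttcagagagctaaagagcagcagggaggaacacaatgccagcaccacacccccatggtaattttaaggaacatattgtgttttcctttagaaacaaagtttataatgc
Slc25a21 (second of 2 starts), chr12:57197473-57197722, minus strand: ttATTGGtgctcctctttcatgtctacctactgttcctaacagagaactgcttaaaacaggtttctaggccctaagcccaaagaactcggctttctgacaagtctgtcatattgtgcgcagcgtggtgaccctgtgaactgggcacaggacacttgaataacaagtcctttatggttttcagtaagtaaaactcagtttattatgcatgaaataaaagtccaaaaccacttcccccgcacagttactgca
Slc25a24, chr3:109122899-109123148, plus strand: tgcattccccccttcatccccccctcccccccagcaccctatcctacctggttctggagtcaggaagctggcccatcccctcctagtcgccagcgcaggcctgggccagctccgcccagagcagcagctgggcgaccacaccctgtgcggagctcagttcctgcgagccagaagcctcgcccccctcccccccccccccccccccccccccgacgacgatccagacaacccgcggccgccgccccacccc

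Both pyrimidine carrier windows held 1 CACGTG and 1 CCAAT. Neither motif was found in the Slc25a24 window, and of the Slc25a21 windows 1 held a CCAAT and neither a CACGTG. RefSeq windows matched 37 of the 46 carriers, with 48 windows in all. CACGTG was in 8 of these (16.7%), against 6.02% of 32851 windows of the same length over the genome, and CCAAT in 20 (41.7%), against 33.8%. AGATAA was in 2 (4.17%), against 9.99%, and TGATGNAA in 0, against 3.45%. The 8 windows with CACGTG belong to 7 genes and the 20 with CCAAT to 17. Windows of a gene can overlap, so a single site was counted more than once for CACGTG in Slc25a14 and for CCAAT in Slc25a23. Besides Slc25a33 and Slc25a36, the carriers with a CACGTG were Slc25a1, Slc25a13, Slc25a14, Slc25a15 and Slc25a31. Their differences were 0.25, -0.02, 0.01, 0.08 and 0.00. Slc25a13, Slc25a14 and Slc25a31 were dim, and Slc25a1 and Slc25a15 had every mutant array above both WT arrays. A link between the motif and the differences was not tested. The motifs were chosen with the expression results known, and a match is a description of letters.

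**Figure D2:**
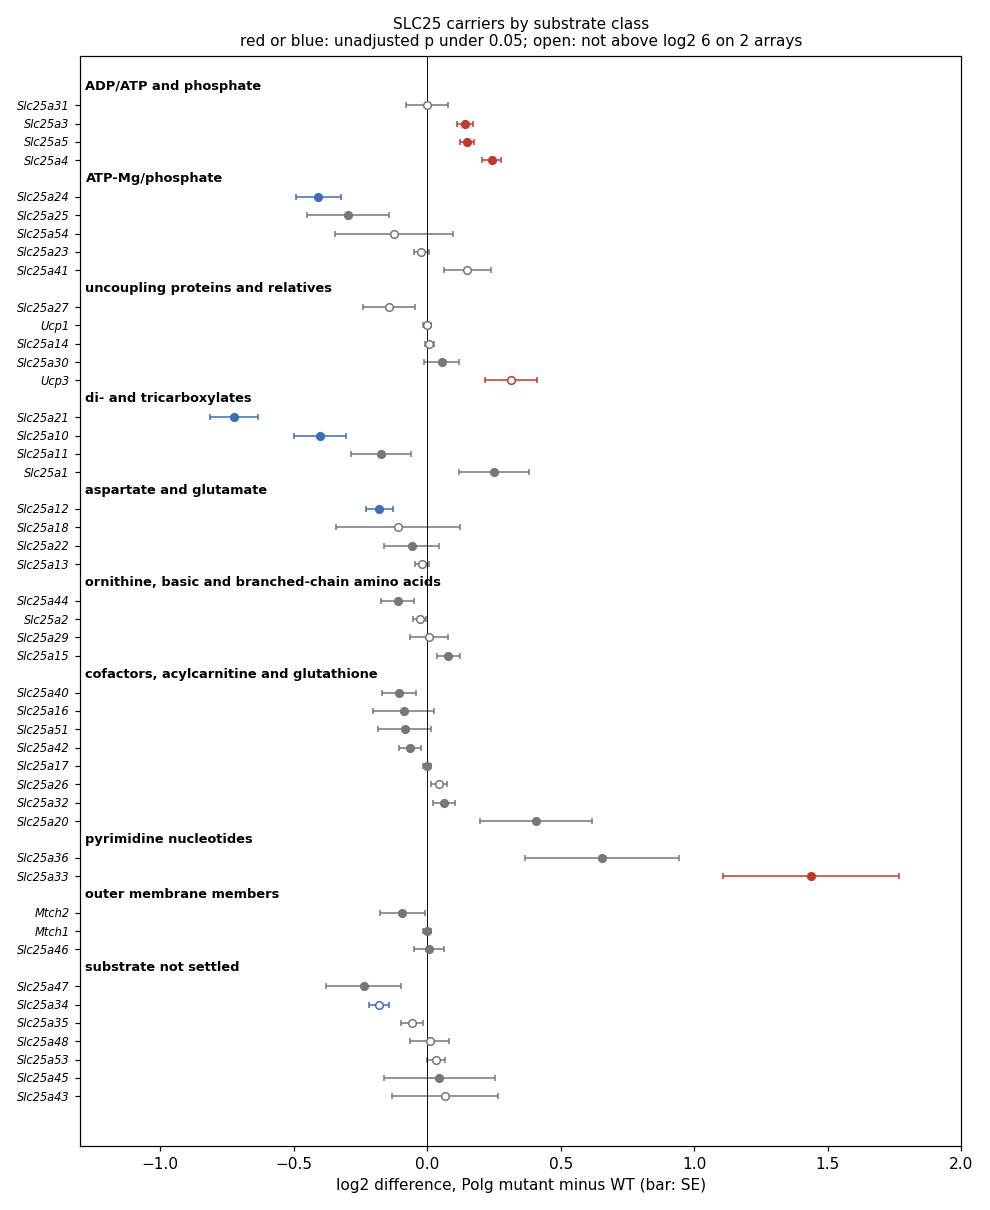
Log2 difference (Polg mutant minus WT) of all 46 carriers by substrate class, with SE bars; red and blue mark unadjusted limma p under 0.05 and open points dim genes. The 2 pyrimidine carriers lie farthest to the right, at 0.65 and 1.44, and Slc25a21 farthest to the left, at -0.72.

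Carriers of di- and tricarboxylates, which move the acids of the citric acid cycle, had a median difference of -0.29 over 4 genes. At an unadjusted limma p under 0.05, 2 were lower and 0 higher, against 5.33% and 4.18% of all genes. Slc25a21, which exchanges 2-oxoadipate and 2-oxoglutarate in lysine and tryptophan breakdown, read 9.86 and 9.61 in WT and 8.96, 9.03 and 9.05 in the mutant. The mutant arrays lay within a narrow band well below both WT arrays. The difference was -0.72 ± 0.09 (SE), a level 1.65-fold lower, with a limma adjusted p of 0.217. With WT replicate 1 left out it was -0.60, and with WT replicate 2 left out -0.85, and in those fits its limma adjusted p was 0.0357 and 0.0348, with the lone WT array assumed to vary as the mutant arrays do. Many genes passed in the same fits, 713 higher and 1068 lower in the former, and 511 and 413 in the latter.

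Slc25a10, which exchanges malate or succinate for phosphate, read 7.15 and 7.34 in WT and 6.96, 6.79 and 6.76 in the mutant. Its groups did not overlap, though mutant replicate 1 came near WT replicate 1. The difference was -0.40 ± 0.10 (SE, limma adjusted p = 0.341), and it reached an unadjusted limma p under 0.05 in 2 of the 5 fits without 1 array. Slc25a11, the 2-oxoglutarate/malate carrier of the malate-aspartate shuttle, read 9.76 and 9.57 in WT and 9.57, 9.57 and 9.34 in the mutant, with 3 arrays tied. Its groups touched, and the difference of -0.17 ± 0.11 (SE) had a limma adjusted p of 0.638. It was -0.078 once WT replicate 1 was left out and -0.27 once WT replicate 2 was.

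The citrate carrier Slc25a1, which supplies acetyl groups for lipid synthesis, went the other way. It read 8.15 and 8.13 in WT and 8.61, 8.23 and 8.34 in the mutant, so every mutant array was above both WT arrays. The difference was 0.25 ± 0.13 (SE, limma adjusted p = 0.638), and mutant replicate 1 stood above the other two.

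The ATP-Mg/phosphate carriers adjust the adenine nucleotide content of the matrix, and most of them are switched by calcium. Over 5 genes the median difference was -0.13. At an unadjusted limma p under 0.05, 1 was lower and 0 higher, against 5.33% and 4.18% of all genes. Slc25a24 read 9.19 and 8.97 in WT and 8.65, 8.74 and 8.63 in the mutant. All mutant arrays were below both WT arrays, and the difference of -0.41 ± 0.08 (SE) had a limma adjusted p of 0.292. It remained at an unadjusted limma p under 0.05 in all 5 fits that left out 1 array, between -0.52 and -0.30. Slc25a25 read 6.5 and 6.17 in WT and 5.87, 6.17 and 6.08 in the mutant, with a difference of -0.30 ± 0.15 (SE), and its groups touched at a tied value. Slc25a23, Slc25a41 and Slc25a54 were dim, with differences of -0.02, 0.15 and -0.13.

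Calcium-binding arms are also found on the aspartate/glutamate carriers Slc25a12 and Slc25a13, which drive the malate-aspartate shuttle. Grouped with Slc25a23, Slc25a24 and Slc25a25, a grouping made after the values were seen, all 5 had negative differences, with a median of -0.18. Of these, Slc25a13 at -0.02 and Slc25a23 at -0.02 were dim and tied, so the group rests on the other 3.

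The aspartate and glutamate carriers had a median of -0.08 over 4 genes, all negative. Slc25a12 read 9.14 and 9.05 in WT and 8.88, 8.89 and 8.99 in the mutant. The groups were separate by a small margin, and the difference was -0.18 ± 0.05 (SE, limma adjusted p = 0.421). It was at an unadjusted limma p under 0.05 in 1 of the 5 fits without 1 array. When only genes with 5 distinct values were fitted, the unadjusted limma p of Slc25a12 was 0.175. Slc25a22, a glutamate carrier, differed by -0.06 ± 0.10 (SE), and its dim relative Slc25a18 by -0.11 ± 0.23.

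The ADP/ATP and phosphate carriers provide ATP synthase with its substrates and export its product. Over 4 genes the median difference was 0.14. At an unadjusted limma p under 0.05, 3 were higher and 0 lower, against 4.18% and 5.33% of all genes. Slc25a5, the ADP/ATP carrier of dividing cells, read 11.68 and 11.72 in WT and 11.86, 11.81 and 11.87 in the mutant. Slc25a4, the form of heart and muscle, read 5.97 and 5.91 in WT and 6.16, 6.23 and 6.16 in the mutant. Slc25a3, the phosphate carrier, read 9.42 and 9.39 in WT and 9.58, 9.52 and 9.53 in the mutant. In all 3 every mutant array was above both WT arrays, and arrays of a group lay closer together than the groups.

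The differences were 0.15 ± 0.03 (SE) for Slc25a5, 0.24 ± 0.04 for Slc25a4 and 0.14 ± 0.03 for Slc25a3, with limma adjusted p of 0.268, 0.238 and 0.295. In fold these are 1.11, 1.18 and 1.10, so their p-values rest on a small spread rather than on size. The 95% intervals of the differences ran from 0.07 to 0.23 for Slc25a5, from 0.14 to 0.34 for Slc25a4 and from 0.06 to 0.22 for Slc25a3. With arrays centred on genes above a log2 of 6, the differences were 0.096 for Slc25a5, 0.19 for Slc25a4 and 0.088 for Slc25a3, and none of the 3 was at an unadjusted limma p under 0.05. After quantile normalization the unadjusted limma p of Slc25a5 was 0.119. Among genes with 5 distinct values it was 0.234 for Slc25a5 and 0.258 for Slc25a3, at the same differences. That fit moderates the variance with those genes alone, so these p-values depend on which genes set the moderation. Slc25a4 has a tie and is not in that fit. Slc25a31, the form of the testis, was dim and differed by 0.00. Slc25a5 has processed pseudogenes and close relatives within the family, and whether its probes separate them was not given.

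Among carriers of cofactors, acylcarnitine and glutathione, 8 of 10 listed genes were measured, with a median of -0.03 and 0 at an unadjusted limma p under 0.05. Slc25a20, which carries acylcarnitines for fatty acid oxidation, read 5.55 and 5.98 in WT and 6.06, 6.02 and 6.43 in the mutant. The mutant arrays were all higher, by a gap smaller than that between the WT arrays, and the difference was 0.41 ± 0.21 (SE, limma adjusted p = 0.638). Without WT replicate 1 it was 0.19, and without WT replicate 2 it was 0.62. Slc25a51, the mitochondrial NAD carrier, read 11.32 and 11.19 in WT and 11.22, 11.27 and 11.02 in the mutant, so the groups overlapped. Its difference of -0.09 had a 95% interval from -0.37 to 0.20.

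The folate carrier Slc25a32 was higher on every mutant array by a small amount, 0.06 ± 0.04 (SE). The coenzyme A carrier Slc25a42 differed by -0.07, its relative Slc25a16 by -0.09 and the glutathione carrier Slc25a40 by -0.11. The S-adenosylmethionine carrier Slc25a26 was dim at 0.04, and the peroxisomal carrier Slc25a17 read 7.99 on all arrays.

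The uncoupling proteins and their relatives, which can leak protons or carry metabolites across the inner membrane, were mostly dim (4 of 5). Ucp3, the muscle form, read 4.73 and 4.47 in WT and 4.87, 4.88 and 4.98 in the mutant. The groups were separate, but all values were under the array medians and not shown to be above background. Its difference of 0.31 ± 0.10 (SE, limma adjusted p = 0.461) ranged from 0.18 to 0.44 when 1 array was left out. Slc25a30 read 7.19 on 4 arrays and 7.35 on mutant replicate 1. Ucp1, the brown fat form, had 1 value throughout, and Slc25a14 and Slc25a27 differed by 0.01 and -0.14.

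The remaining classes showed small differences. Among the carriers of ornithine, basic and branched-chain amino acids the range was -0.11 to 0.08. Slc25a44, the branched-chain amino acid carrier, read 9.36 and 9.21 in WT and 9.13, 9.19 and 9.21 in the mutant, with a tie between the groups. Slc25a15, the ornithine carrier, was higher on every mutant array by 0.08 ± 0.04 (SE). Slc25a29 and Slc25a2 were dim at 0.01 and -0.03.

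The family members of the outer membrane did not separate the groups. Mtch2, which inserts proteins into that membrane, read 8.71 and 8.66 in WT and 8.66, 8.66 and 8.45 in the mutant. Slc25a46, which takes part in mitochondrial dynamics, differed by 0.01 and Mtch1 by 0.00. The 95% interval for Mtch2 ran from -0.34 to 0.15.

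Of the 7 carriers without a settled substrate, 5 were dim. Slc25a34 read 5.23 and 5.34 in WT and 5.11, 5.11 and 5.10 in the mutant, with 2 mutant arrays tied, and differed by -0.18 ± 0.04 (SE, limma adjusted p = 0.30). Slc25a47 was 6.15 and 6.57 in WT and 6.12 on each mutant array, a difference of -0.24 ± 0.14. Slc25a45 read 6.58 and 6.22 in WT and 6.69, 6.47 and 6.18 in the mutant. Its groups overlapped, and its difference of 0.04 changed sign in 3 of 6 fits that left arrays out. Slc25a35, Slc25a43, Slc25a48 and Slc25a53 lay between -0.06 and 0.07.

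**Figure D3:**
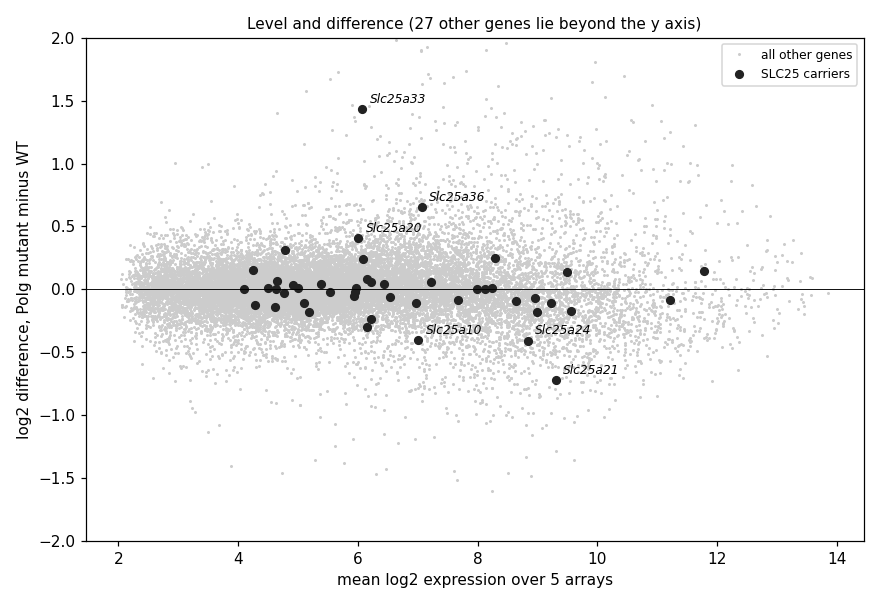
Mean log2 expression over 5 arrays (x) against the log2 difference, Polg mutant minus WT (y), for the 46 carriers (black) and all other genes (grey); 27 other genes lie beyond the y axis. Carriers that differ by at least 0.4 are named, and most others sit in the dense band around 0.

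The carrier results were set beside the array difference seen in neutrophil markers. WT replicate 2 and Polg mutant replicate 3 had the lowest neutrophil means, so the mutant was also compared with WT among the other 3 arrays and between these 2. Slc25a33 differed by 1.38 among the former and by 1.28 between the latter, and Slc25a36 by 0.63 in both. Slc25a21 differed by -0.86 and -0.56, Slc25a24 by -0.49 and -0.35, and Slc25a10 by -0.27 and -0.57. Slc25a4 and Slc25a5 differed by 0.23 and 0.24, and by 0.16 and 0.15. Each of these had the same direction in both comparisons, which hold 1 WT array each and were not tested. That direction was fixed beforehand, because the groups of these carriers do not overlap, so only the sizes could differ. Ucp3 and Slc25a12 were less even, at 0.15 and 0.51, and at -0.26 and -0.07.

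**Figure D4:**
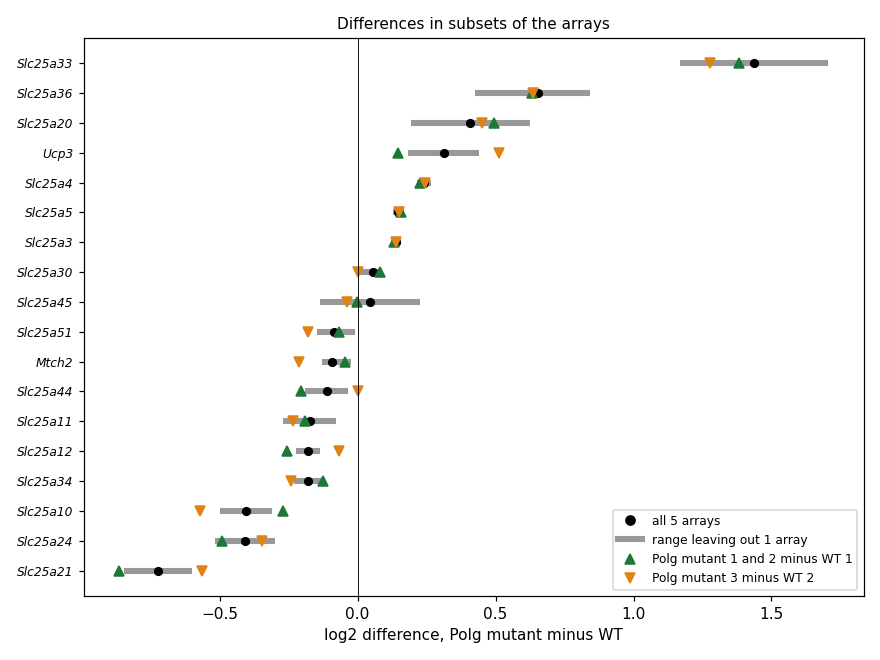
Log2 difference, Polg mutant minus WT, of 18 carriers over all 5 arrays (black), as a range over the fits that leave out 1 array (grey bar), among the 3 arrays with higher neutrophil marker means (green) and between the 2 with lower ones (orange). Slc25a33 lies between 1.17 and 1.71 and Slc25a21 between -0.86 and -0.56 throughout.

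The 4 carriers left out of the family above gave a point of reference, since they serve heme and iron metabolism. Slc25a38, which brings glycine into mitochondria, differed by -0.56 ± 0.11 (SE), a size between those of Slc25a21 and Slc25a24. Slc25a37, the iron importer of erythroid cells, differed by -0.20 ± 0.02 and Slc25a39, which carries glutathione, by 0.15 ± 0.08. Slc25a28 had a single value on all arrays. The difference between these carriers and the others was not tested.

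Enzymes and membrane routes that share substrates with the carriers were counted in 12 lists. Of 94 listed genes 84 were measured, and 13 were higher (15.5%, against 4.18% of all genes) and 5 lower (5.95%, against 5.33%) at an unadjusted limma p under 0.05, with 0 past an adjusted p of 0.05. The lower share is close to that of all genes, but a larger part of all genes was dim than of these lists. Among all genes that were not dim, 9.47% were higher and 12.5% lower at that p. Each listed gene at that p was not dim, so the shares of all genes printed here and for the lists below are low comparators.

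For pyrimidines, 3 of 8 measured enzyme genes were lower and 1 higher at that p, against 5.33% and 4.18% of all genes. Of the 2 carriers Slc25a33 was higher at it. The mitochondrial kinase gene Cmpk2 differed by -0.50 ± 0.10 (SE), the thymidine kinase gene Tk1 by -0.51 ± 0.13 and Dut, which removes dUTP, by -0.27 ± 0.07. Cad, which starts pyrimidine synthesis and is named after its value was seen, differed by 0.28 ± 0.08.

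For the folate and S-adenosylmethionine enzymes, 3 of 8 were higher and 0 lower, against 4.18% and 5.33% of all genes. The serine hydroxymethyltransferase gene Shmt2 was higher by 1.34 ± 0.18 (SE), Mthfd2 by 0.87 ± 0.12 and Mthfd1 by 0.63 ± 0.10, while the carriers Slc25a32 and Slc25a26 differed by 0.06 and 0.04. For the malate-aspartate shuttle, 1 of 4 enzyme genes was higher: the cytosolic aminotransferase gene Got1, by 0.99 ± 0.13. Its mitochondrial partner Got2 differed by 0.00, and the shuttle's carriers Slc25a11 and Slc25a12 by -0.17 and -0.18. For ornithine, 2 of 6 were higher, Aldh18a1 by 0.82 ± 0.09 and Oat by 0.45 ± 0.11, against 0.08 for the carrier Slc25a15.

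The route that inserts carriers had 3 of 13 genes higher and 0 lower (against 4.18% and 5.33% of all), with a median of 0.21. These were the outer membrane receptor genes Tomm20, by 0.65 ± 0.09 (SE), and Tomm70a, which recognises carrier precursors, by 0.36 ± 0.03, and the channel gene Tomm40, by 0.35 ± 0.11. Timm22, the inner membrane insertase itself, was dim and differed by 0.03 ± 0.05. Genes of the small chaperones Timm9, which was dim, and Timm8a1, both named after their values were seen, had every mutant array above WT. Their differences of 0.54 ± 0.25 and 0.57 ± 0.25 did not reach that p. WT arrays were far apart in both, at 5.24 and 5.78 for Timm9 and at 5.57 and 6.31 for Timm8a1. Among other solute routes 3 of 11 were higher: the pyruvate carrier subunit gene Mpc1 by 0.54 ± 0.10, the serine transporter gene Sfxn1 by 0.25 ± 0.08 and its relative Sfxn3 by 0.87 ± 0.28. The channel genes Vdac1, Vdac2 and Vdac3 differed by -0.03, 0.09 and -0.01.

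Of 7 NAD genes, 2 were lower and 0 higher, against 5.33% and 4.18% of all genes. The lower were Nmnat3, by -0.51 ± 0.10 (SE), and Nadk2, by -0.26 ± 0.06. In the lists for citrate and NADPH, users of exported ATP, coenzyme A, thiamine and the carnitine shuttle, 0 genes were at an unadjusted limma p under 0.05. Their medians were 0.02, -0.01, 0.04, -0.22 and -0.14.

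**Figure D5:**
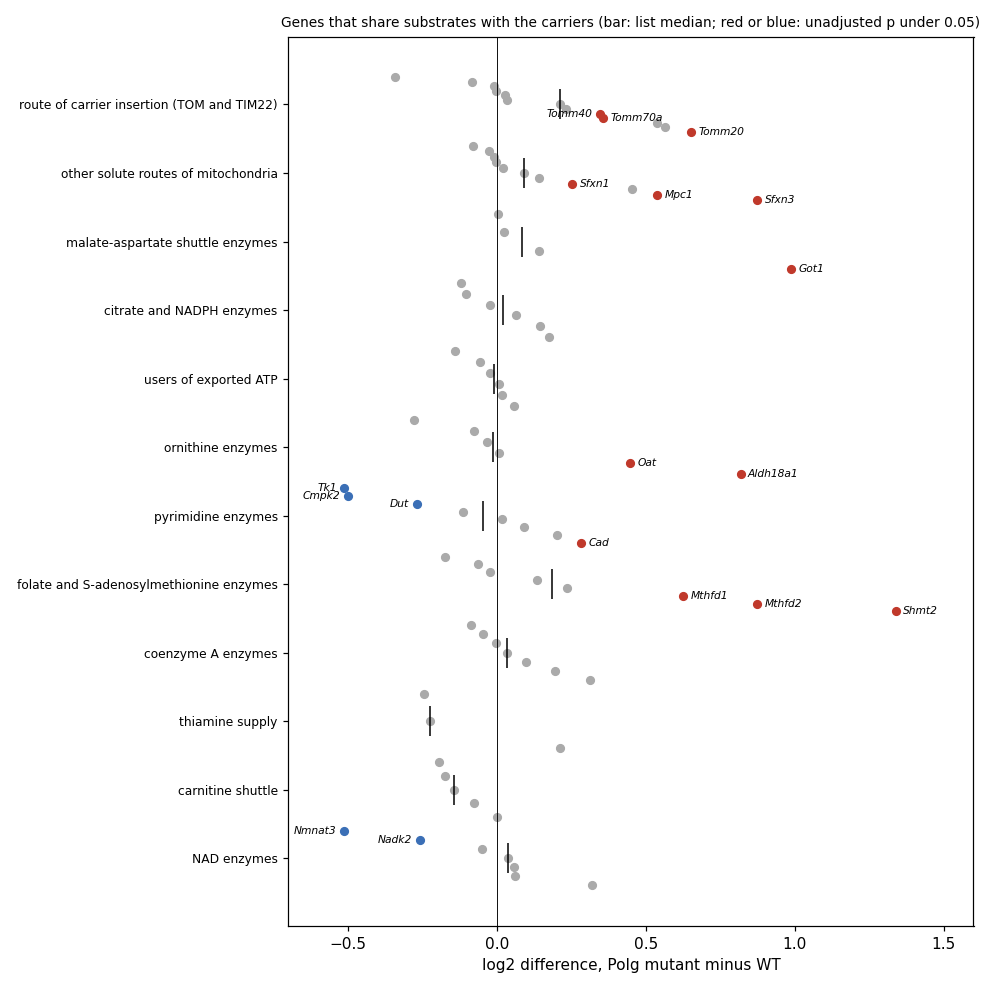
Log2 difference, Polg mutant minus WT, of 84 genes in 12 lists that share substrates or routes with the carriers; bars are list medians, and red and blue points have an unadjusted limma p under 0.05. Shmt2 lies farthest to the right, at 1.34, and the lower genes are in the pyrimidine and NAD lists.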

How the data were processed

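Total RNA, 100 ng per sample, was labelled for whole-transcript arrays, per the labels' protocols. The authors deposited a single table of log2 values, 41345 probe sets by 5 arrays. RMA and Partek 6.5 are named without role or order in the submitters' processing notes, and the genome build is not given in the sources used here. Values ran from 1.43 to 14.1, hence log2, and were used without further scaling.

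Probe sets were named from the platform annotation, of which 23521 had 1 symbol. The brightest was kept for each of 22180 genes. Genotype was tested over all 5 arrays with limma 3.58.1 in R 4.3.3 (two-sided, moderated variance, Benjamini-Hochberg over all genes, threshold 0.05), after a test on simulated data. An exact permutation test cannot go below p = 0.1 with 2 against 3 arrays.

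Members, classes and lists were chosen with earlier results of these data known. Array values are given for members at an unadjusted p under 0.05, for members whose groups do not overlap with a difference of at least 0.3, for the brightest of each class and for some others, named after their values were seen. Related lists name up to 3 genes of smallest p, and any gene beyond that was likewise chosen afterwards. Alternatives changed the scaling, the filter, the probe set, the variance model, ties, the replicate block or the arrays, and 1 was added after seeing the data.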

Additional observations from a re-analysis of the deposited data

How the results depend on the processing

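The 18 carriers chosen by the naming rule kept their direction in the 14 to 16 alternatives that gave each a value, except Slc25a45, and Slc25a30, which was 0.00 without Polg mutant replicate 1. Many of these alternatives could not change a direction. Each carrier has 1 probe set, and the variance models and filters leave a difference as it is. Leaving out arrays cannot reverse a carrier whose groups do not overlap. Slc25a45 was -0.0074 with arrays centred on genes above log2 6, -0.13 without WT replicate 2, -0.076 without Polg mutant replicate 1 and -0.0032 without WT replicate 2 and Polg mutant replicate 3 together, an alternative chosen after seeing the data. Without 1 array it ranged from -0.13 to 0.22. That removal leaves 1 WT array and 2 mutant arrays. It placed 14 carriers above WT (30.4%, against 27.4% of all genes) and 15 below (32.6%, against 24.2%), and called 1127 genes higher and 921 lower. Slc25a11 and Slc25a34 were among them, and for both the 2 mutant arrays are tied, so these calls rest on the tie.

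Over all genes, limma calls (higher and lower) were 8 and 1 after quantile normalization, 31 and 24 with centring on genes above log2 6, 6 and 5 among genes above that level, 4 and 1 without moderation and 73 and 41 among genes with 5 distinct values. The filters test fewer genes and also moderate the variance with those genes alone. The cause of the other changes was not tested. Leaving out 1 array gave 0 to 713 and 0 to 1068. Without WT replicate 1 the called carriers were Slc25a21, Slc25a34, Slc25a35 and Slc25a47, the last 3 with tied mutant arrays.

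With centring on genes above log2 6, 2 carriers were higher and 5 lower at an unadjusted limma p under 0.05 (4.35% and 10.9%, against 3.69% and 7.12% of all genes). Among genes with 5 distinct values 2 carriers were higher and 3 lower (10.5% and 15.8%, against 10.3% and 11.3% of such genes). Leaving out 1 array gave 2 to 8 higher (8 without WT replicate 1, 2 without WT replicate 2) and 3 to 8 lower (8 without WT replicate 1, 3 without Polg mutant replicate 2). Without WT replicate 1, 8.56% of all genes were higher and 11.6% lower at that p, so the rise goes with one over all genes, and without WT replicate 2 the 2 carriers (4.35%) stand against 8.30%. Carriers with separate groups numbered 10 to 13 higher and 6 to 14 lower without 1 array, while the shares of all genes ran up to 23.0% and 28.1%, and 14 lower with that centring (30.4%, against 20.9%). Related genes at an unadjusted limma p under 0.05 numbered 3 lower with 5 distinct values, where 11.3% of all such genes were lower. Their counts, too, changed when 1 array was left out.

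Centring on genes above log2 6 moved the median of all genes and of the carriers to -0.052, so differences smaller than this have no settled sign. Class medians then were 0.092 for ADP/ATP and phosphate, -0.18 for ATP-Mg/phosphate, -0.046 for uncoupling proteins, -0.063 for ornithine and other amino acids, -0.085 for cofactors, -0.052 for the outer membrane and -0.044 for unsettled carriers. The carriers' median was 0.014 with median centring, -0.029 among genes above log2 6 and 0.062 with 5 distinct values. Among genes above log2 6, medians were -0.35 for ATP-Mg/phosphate, 0.055 for uncoupling proteins, -0.066 for cofactors and -0.097 for unsettled carriers. With 5 distinct values they were -0.27 for ATP-Mg/phosphate, 0.31 for uncoupling proteins, -0.40 for carboxylates and 0.079 for ornithine. Quantile normalization gave 0.030 for uncoupling proteins.

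Without 1 array, medians ranged from -0.022 to 0.00 for all carriers, 0.13 to 0.16 for ADP/ATP and phosphate, -0.20 to -0.053 for ATP-Mg/phosphate, 0.00 to 0.010 for uncoupling proteins, -0.34 to -0.23 for carboxylates, -0.16 to 0.0007 for aspartate and glutamate, -0.037 to 0.015 for ornithine, -0.033 to 0.026 for cofactors, 0.83 to 1.21 for pyrimidines, -0.023 to 0.00 for the outer membrane and -0.056 to -0.0063 for unsettled carriers.

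With the replicate block, 0 genes were called by limma, and 1089 were higher (4.91%) and 1057 lower (4.77%) at an unadjusted p under 0.05. At that p 2 carriers were higher (4.35%), Slc25a3 and Slc25a33, and 3 lower (6.52%), Slc25a18, Slc25a21 and Slc25a40. Slc25a4, Slc25a5, Ucp3, Slc25a10, Slc25a12, Slc25a24 and Slc25a34 were no longer at it. Medians were -0.20 for ATP-Mg/phosphate, -0.023 for the outer membrane and -0.050 for unsettled carriers. Deviations of same-numbered arrays from their group means had r = 0.19 for number 1 and -0.21 for number 2 over 13241 genes. For WT replicate 2 and Polg mutant replicate 3 it was 0.32. With 2 WT arrays the WT deviations mirror each other, so the signs are linked. These values cannot decide whether same-numbered samples share more than a number. Depth is not defined for arrays, and without signal over background dim carriers have no lower limit.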
